A study of Mus musculus with 30 samples.

Results

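Complex III, complex IV and ATP synthase are the last machines of mitochondrial respiration, and the transcripts of their nuclear-encoded subunits were measured in pressure-loaded mouse hearts. The genes were chosen by symbol: those whose mouse symbol starts with Uqcr, Cox4 to Cox8 or Atp5, plus Cyc1 and Cycs, with a mean of at least 1 CPM (the count of a gene scaled to the total count of its library) over 30 libraries and no pseudogenes. Of 24467 gene rows, 45 matched and 43 passed: 9 of complex III, 16 of complex IV, 17 of ATP synthase, and Cycs. The 2 rows under the minimum were Cox7b2, with a mean of 0.245 CPM, and Cox8c, with 0 counts in all 30 libraries. The members nearest above it were Cox6b2 at 1.43 CPM and Atp5md at 4.59 CPM. All 43 had counts in each of the 30 libraries, and all 43 passed the filter on low counts. Subunits encoded by mitochondrial DNA were not analysed here.

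The libraries were made from left ventricle of mice in 4 groups: 10 libraries of non-transgenic mice (NTG, called wildtype in the titles) with transverse aortic constriction (TAC, surgical banding of the aorta so that the left ventricle pumps against a higher pressure), 5 of NTG mice with a Sham operation, 10 of mice with a transgene for the human relaxin receptor RXFP1 (hRXFP1tg, TG) with TAC, and 5 of TG mice with Sham. TAC had lasted 8 weeks. The series title calls the overexpression cardiomyocyte specific. The promoter that drives it, the number of founder lines, and the age, sex and strain of the mice are not given in the sources used here. The labels number the replicates and say nothing of separate animals, so p-values measure only the spread between these samples, which may be technical.

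Complex III takes electrons from ubiquinol and passes them to cytochrome c, a small mobile carrier, and complex IV, or cytochrome c oxidase, passes them on to oxygen. Both pump protons across the inner mitochondrial membrane, and ATP synthase uses the returning protons to turn a rotor and make ATP. Heart muscle depends on this route for most of its ATP, and several subunits of complex IV exist in a form enriched in heart and skeletal muscle and in a form found in most tissues.

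Library totals ran from 9231678 to 13093351 counts, and the 43 members took between 2.42% and 4.23% of them. Some libraries stood apart. NTG Sham replicates 3 and 4 had the highest member levels of their group, with median log2 differences from the mean of the other NTG Sham libraries of 0.17 and 0.20. NTG Sham replicate 5 held T lymphocyte transcripts, with a summed level of 10 markers of 304 CPM against at most 25.6 CPM in the other 29 libraries. Nppa, which encodes atrial natriuretic peptide and rises in stressed heart muscle, was between 5666 and 9462 CPM in NTG TAC replicates 2, 3, 5, 8 and 10 and between 386 and 1611 CPM in the other 5 NTG TAC libraries. Of 10 cardiomyocyte markers, 10 were detected in each of the 30 libraries. The 10 skeletal muscle markers summed to 2794 to 15845 CPM in NTG TAC and 2357 to 3230 CPM in NTG Sham, and to 2971 to 10557 CPM in TG TAC and 1812 to 2448 CPM in TG Sham. Acta1, which heart muscle under load also expresses, carried the difference, with group means of 7734 CPM in NTG TAC and 779 CPM in NTG Sham, and Myh4 was at 0 in 28 libraries. The 10 atrial markers, with Nppa among them, summed to 1243 to 11159 CPM in NTG TAC and 939 to 1277 CPM in NTG Sham, and to 902 to 2073 CPM in TG TAC and 717 to 1002 CPM in TG Sham, and Sln was at 0 in 25 libraries.

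Levels per length set the members in order. In CPM per kilobase of transcript, averaged over the 30 libraries, Cox6a2 was highest at 4685, followed by Atp5b at 3623 and Atp5a1 at 2040. Cox6a2 is the muscle form of subunit 6A of complex IV, and Atp5b and Atp5a1 encode the beta and alpha subunits of the catalytic head of ATP synthase. Cox4i1, the common form of subunit 4, was at 1493, and Cyc1, the cytochrome c1 subunit of complex III, at 751. The lowest were Cox4i2, a form of subunit 4 known from lung, at 13.9, Atp5md, a small membrane subunit, at 12.7, and Cox6b2, a form of subunit 6B known from testis, at 2.58. On the same per-kilobase scale the muscle forms stood above their partners: Cox6a2 at 4685 and Cox6a1 at 215, Cox7a1 at 1014 and Cox7a2 at 382, Cox8b at 875 and Cox8a at 347. Named pseudogenes in RefSeq can share reads with Atp5c1, Atp5k, Atp5l, Atp5pb, Uqcrh, Cox5b, Cox7c and Cycs, so the levels of these 8 genes are uncertain. Exons of several members, among them Cox4i1, Cox6a2 and Atp5a1, overlap a gene on the opposite strand, and the strand setting of the counting is not stated.

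RefSeq, on GRCm38.p6, gave a promoter for 33 of the 43 members, and the 250 bases before the start site are shown here for 2 pairs of isoforms whose ratio was compared between groups, and for Atp5h and Cox6a1, which hold matches to 2 motifs. Capitals mark a match to a motif, on either strand, and a sequence without capitals holds none of the motifs searched.
Cox7a1: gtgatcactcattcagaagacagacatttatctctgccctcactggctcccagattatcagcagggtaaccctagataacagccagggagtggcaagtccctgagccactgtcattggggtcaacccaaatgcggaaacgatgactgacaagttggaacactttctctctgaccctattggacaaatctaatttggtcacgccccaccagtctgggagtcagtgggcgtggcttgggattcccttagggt
Cox7a2: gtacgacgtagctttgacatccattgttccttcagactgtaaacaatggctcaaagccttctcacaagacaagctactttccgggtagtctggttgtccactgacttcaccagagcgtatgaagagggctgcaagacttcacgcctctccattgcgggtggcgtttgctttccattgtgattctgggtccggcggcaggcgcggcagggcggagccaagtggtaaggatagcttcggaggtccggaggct
Cox8b: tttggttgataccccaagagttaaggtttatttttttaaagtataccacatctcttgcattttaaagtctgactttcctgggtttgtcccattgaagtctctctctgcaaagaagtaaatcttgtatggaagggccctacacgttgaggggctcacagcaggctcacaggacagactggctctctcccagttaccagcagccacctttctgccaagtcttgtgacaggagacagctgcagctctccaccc
Cox8a: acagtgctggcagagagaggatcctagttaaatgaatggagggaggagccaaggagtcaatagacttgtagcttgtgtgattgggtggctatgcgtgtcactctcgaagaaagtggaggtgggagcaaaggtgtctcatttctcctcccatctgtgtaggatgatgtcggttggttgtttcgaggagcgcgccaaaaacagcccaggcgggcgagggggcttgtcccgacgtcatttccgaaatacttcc
Atp5h: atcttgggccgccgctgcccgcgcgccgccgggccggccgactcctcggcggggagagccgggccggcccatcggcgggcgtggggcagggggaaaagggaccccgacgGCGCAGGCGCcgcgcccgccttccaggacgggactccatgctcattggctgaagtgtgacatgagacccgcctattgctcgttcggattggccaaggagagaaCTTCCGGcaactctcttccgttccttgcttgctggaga
Cox6a1: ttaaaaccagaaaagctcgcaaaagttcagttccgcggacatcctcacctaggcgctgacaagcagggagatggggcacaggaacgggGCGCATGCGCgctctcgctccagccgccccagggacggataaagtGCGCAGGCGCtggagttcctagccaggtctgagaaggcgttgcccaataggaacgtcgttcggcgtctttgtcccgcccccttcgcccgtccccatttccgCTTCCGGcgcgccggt

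The coordinates in the same order are chr7:30183921-30184170 on the plus strand for Cox7a1, and on the minus strand chr9:79759854-79760103 for Cox7a2, chr7:140900447-140900696 for Cox8b, chr19:7217617-7217866 for Cox8a, chr11:115419920-115420169 for Atp5h and chr5:115348959-115349208 for Cox6a1. The muscle forms Cox7a1 and Cox8b held 4 and 1 CpG dinucleotides in this window, against 14 in Cox7a2 and 11 in Cox8a. The median was 14 CpG over the 33 members and 17 over 10771 tested genes with a promoter in the table. At most 3 CpG were present in 1 of the 33 members, Cox8b, and in 7.43% of all these promoters.

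Motifs of 5 regulators known to act on respiratory genes were searched on both strands of these 250 bases. The ETS motif CCGGAAG, bound by GABPA, was in 24.2% of the members' promoters and in 14.97% of all. The NRF1 motif, GCGC and TGCGC with any base between them, was in 15.2% and 8.91%. The motif AAGGTCA of estrogen-related receptors was in 6.06% and 3.50%, AAGATGG of YY1 in 3.03% and 4.99%, and the MEF2 motif, CTA and TAG with any 4 bases between them, in 3.03% and 3.57%. Atp5h and Cox6a1 were the members with both an ETS and an NRF1 match. These are matches of letters, and no binding was measured.

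The first comparison asks how 8 weeks of TAC changed these transcripts in non-transgenic hearts. Subunits of all 3 complexes fell. Of the 43 members, 29 were lower and 0 higher with edgeR's quasi-likelihood test at a Benjamini-Hochberg adjusted p under 0.05, where 8.13% of all 13588 tested genes were lower, 9.46% higher and 17.6% either. The fall was small and similar in the complexes, with median log2 fold changes of -0.27 in complex III, -0.30 in complex IV and -0.30 in ATP synthase, against 0.00 over all tested genes. The sign was negative for 42 of 43 members. Atp5md was the exception, at 0.00 ± 0.15 (SE).

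Summed over the 43 members, NTG TAC libraries ran from 22596 to 38217 TMM-scaled CPM with a median of 33528, against 36858 to 43526 CPM with a median of 38512 in NTG Sham libraries. These sums overlap: NTG TAC replicates 1, 4 and 6 lay within the Sham range, and replicate 10 was the lowest. Relative to the mean of the NTG Sham libraries, the median member was 0.77 lower on the log2 scale in NTG TAC replicate 10, and 0.05 and 0.06 lower in replicates 4 and 6. Replicates 2, 3 and 10 had 40, 41 and 41 members below the lowest Sham library, and replicate 4 had 5. The TAC libraries thus differed from each other far more than the Sham libraries did.

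**Figure D1:**
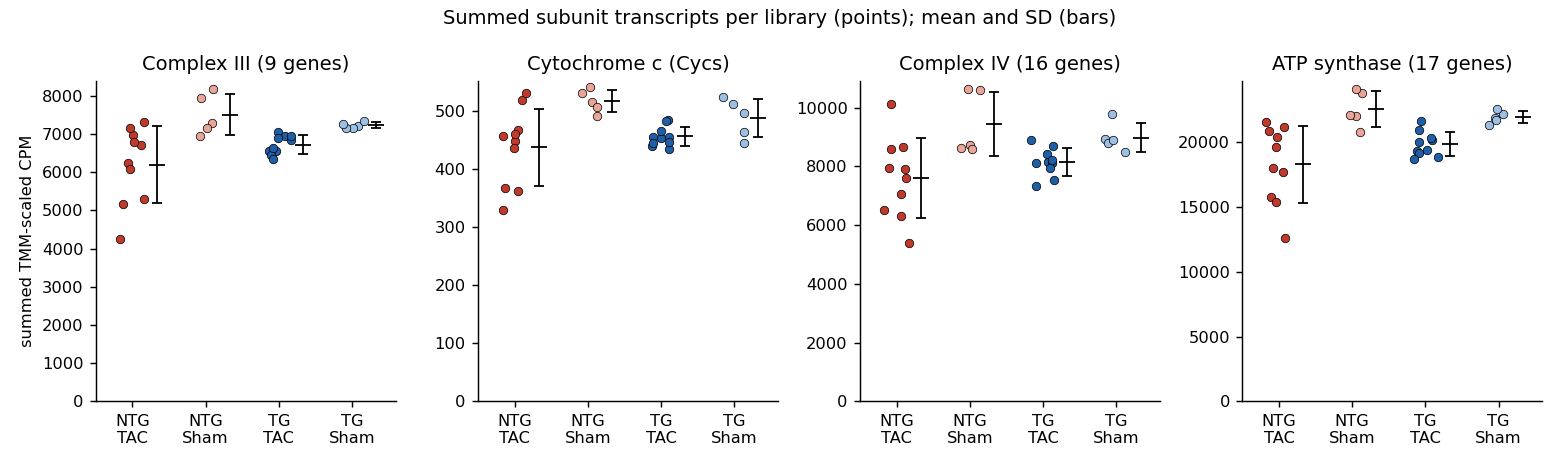
Summed TMM-scaled CPM (vertical axis, from 0) of the subunits of complex III, Cycs, complex IV and ATP synthase in each library (points), with the mean and SD of each group (bars). The summed level of ATP synthase spans 12624 to 21583 CPM in NTG TAC, 20829 to 24168 CPM in NTG Sham, 18718 to 21646 CPM in TG TAC and 21384 to 22596 CPM in TG Sham.

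In complex III, 6 of 9 subunits fell in NTG TAC hearts. Cyc1, which carries the heme that hands electrons to cytochrome c, ran from 757 to 1197 CPM with a median of 1086 in NTG TAC, against 1224, 1230, 1338, 1360 and 1186 CPM in NTG Sham libraries. It fell by 0.27 ± 0.08 (SE) on the log2 scale (adjusted p = 0.0181), with 7 of 10 TAC libraries below the lowest Sham library. Uqcrc1, a core subunit, ran from 992 to 1864 CPM with a median of 1604 in NTG TAC, against 1908, 1869, 2025, 2059 and 1804 CPM in NTG Sham.

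Uqcrc1 fell by 0.33 ± 0.10 (adjusted p = 0.0198), the largest fall of complex III. Uqcrh, the hinge subunit beside cytochrome c1, had the smallest p of the complex. It ran from 182 to 292 CPM with a median of 254 in NTG TAC, against 298, 280, 335, 342 and 273 CPM in NTG Sham, and fell by 0.31 ± 0.08 (adjusted p = 0.0120). The TAC and Sham ranges of Uqcrh overlapped, and 8 of 10 TAC libraries lay below the lowest Sham library. Uqcrc2, Uqcrq and the Rieske iron-sulfur protein Uqcrfs1 also fell, with log2 fold changes from -0.29 to -0.25, Uqcrfs1 at an adjusted p of 0.0496 and called in 6 of 30 fits that left out 1 library. Uqcrb, Uqcr10 and Uqcr11, small subunits, had log2 fold changes of -0.26, -0.13 and -0.27 and did not pass.

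Cycs, cytochrome c itself, ran from 328 to 530 CPM with a median of 452 in NTG TAC, against 514, 491, 540, 531 and 507 CPM in NTG Sham. It fell by 0.24 ± 0.08 (adjusted p = 0.0302), and 8 of 10 TAC libraries were below all 5 Sham libraries.

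In complex IV, 9 of 16 subunits fell in NTG TAC hearts, and the members differed more among themselves than in the other complexes: log2 fold changes ran from -1.27 to -0.01. The largest fall was of Cox6b2, a rare transcript with 2 to 38 counts per library over the series. It ran from 0.458 to 2.90 CPM with a median of 0.953 in NTG TAC, against 1.60, 2.59, 3.77, 4.11 and 2.65 CPM in NTG Sham, and fell by 1.27 ± 0.32 (adjusted p = 0.00864). With so few counts the size of this fall is uncertain, although 10 of 10 TAC libraries lay below the Sham mean.

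Cox7a1, the muscle form of subunit 7A, ran from 169 to 476 CPM with a median of 360 in NTG TAC, against 474, 434, 565, 644 and 484 CPM in NTG Sham. It fell by 0.62 ± 0.16 (adjusted p = 0.00985), and 8 of 10 TAC libraries lay below the lowest Sham library. Cox8b, the muscle form of subunit 8, ran from 203 to 368 CPM with a median of 306 in NTG TAC, against 346, 341, 416, 450 and 340 CPM in NTG Sham. Its fall was 0.35 ± 0.09 (adjusted p = 0.0132), also with 8 of 10 TAC libraries below all Sham libraries.

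Cox6a2, the muscle form of subunit 6A and the member with the highest level per length, ran from 1932 to 4390 CPM with a median of 2740 in NTG TAC, against 3161, 3347, 4082, 4042 and 3432 CPM in NTG Sham. It fell by 0.35 ± 0.12 (adjusted p = 0.0470), but 1 TAC library lay above all 5 Sham libraries, and the call held in 10 of 30 fits that left out 1 library. The common subunits Cox4i1, Cox5b, Cox6c, Cox7a2 and Cox7b also fell, with log2 fold changes from -0.35 (Cox7b) to -0.29 (Cox7a2).

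Other subunits of complex IV did not pass. Cox8a, the common form of subunit 8, ran from 162 to 245 CPM with a median of 187 in NTG TAC, against 178, 178, 202, 204 and 186 CPM in NTG Sham, with a log2 fold change of -0.01 ± 0.07 (adjusted p = 0.919). Cox7a2l, which encodes a factor that links complexes III and IV into supercomplexes, ran from 208 to 247 CPM with a median of 235 in NTG TAC, against 237, 249, 255, 255 and 219 CPM in NTG Sham, with a log2 fold change of -0.06 ± 0.05 (adjusted p = 0.408). TAC and Sham libraries of both genes overlapped. For Cox8a, 3 of 10 TAC libraries lay below all Sham libraries and 1 above them all. For Cox7a2l, 2 of 10 lay below and 0 above. Cox6a1, Cox5a, Cox6b1 and Cox7c had log2 fold changes of -0.13, -0.25, -0.19 and -0.23, and Cox4i2 of -0.31 (adjusted p = 0.0735).

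In ATP synthase, 13 of 17 subunits fell in NTG TAC hearts. Atp5b, the catalytic beta subunit, ran from 4248 to 7343 CPM with a median of 6321 in NTG TAC, against 7563, 7741, 8012, 8149 and 7222 CPM in NTG Sham. It fell by 0.31 ± 0.09 (adjusted p = 0.0168), with 8 of 10 TAC libraries below the lowest Sham library. Atp5o, which joins the head to the peripheral stalk, had the smallest p of the complex and the largest fall.

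Atp5o ran from 285 to 532 CPM with a median of 428 in NTG TAC, against 509, 518, 602, 604 and 486 CPM in NTG Sham, and fell by 0.37 ± 0.09 (adjusted p = 0.00955). Atp5e, the small epsilon subunit of the rotor, ran from 163 to 230 CPM with a median of 206 in NTG TAC, against 243, 236, 288, 295 and 211 CPM in NTG Sham, and fell by 0.36 ± 0.10 (adjusted p = 0.0115). The head, rotor and stalk subunits Atp5a1, Atp5c1, Atp5d, Atp5h, Atp5j and Atp5pb and the membrane subunit Atp5j2 also fell, with log2 fold changes from -0.34 (Atp5h) to -0.24 (Atp5d). The 3 genes that encode the same ring subunit of the rotor fell alike, Atp5g1 by 0.28, Atp5g2 by 0.30 and Atp5g3 by 0.31 on the log2 scale. The small membrane subunits Atp5k, Atp5l, Atp5mpl and Atp5md were the 4 that did not pass.

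**Figure D2:**
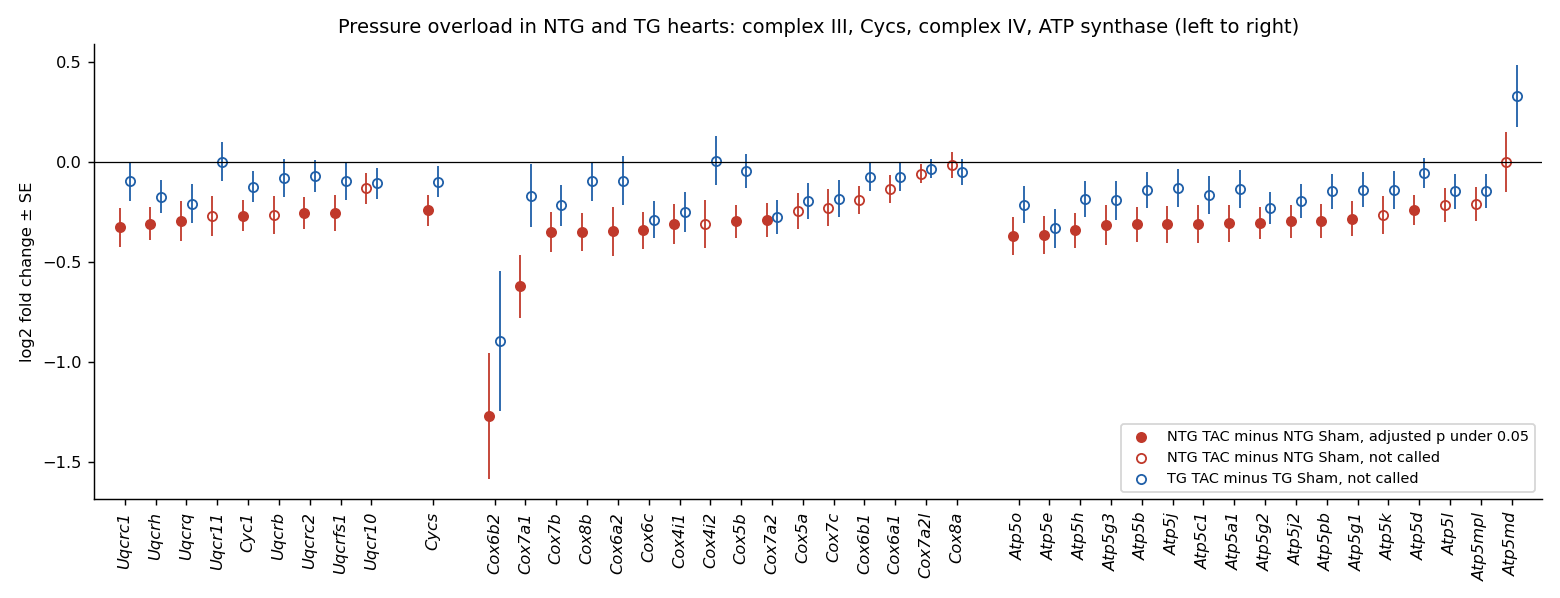
Log2 fold change with SE (vertical axis) of each of the 43 members for NTG TAC minus NTG Sham (red) and TG TAC minus TG Sham (blue), with filled points at an adjusted p under 0.05. The red points lie at or below 0 with 29 filled, and the blue points lie mostly nearer to 0 with none filled.

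The count of falls in NTG hearts rests on which libraries enter. Without NTG Sham replicate 4 it was 9, without NTG Sham replicate 3 it was 13, and without NTG TAC replicate 4 or 6 it was 36. Without NTG Sham replicate 5, the library with T lymphocyte transcripts, it was 32. In the same order, 658 of 13670, 723 of 13678, 1294 of 13586, 1292 of 13574 and 828 of 13655 tested genes were lower. With all 30 libraries 1105 of 13588 tested genes were lower. Atp5b, Atp5e, Atp5g2, Atp5h, Atp5o, Cox6b2, Cox7a1 and Uqcrh were called in all 30 fits that left out 1 library, and the other called members except Cox6a2 and Uqcrfs1 in at least 24. Fitted on the 15 NTG libraries alone, which takes the spread from them only, 0 of 43 members passed, where 0.647% of 13294 tested genes were lower and 0.993% higher. The quasi-likelihood test of that fit gave adjusted p of 0.126 for Cyc1, 0.132 for Uqcrc1, 0.0926 for Uqcrh, 0.0959 for Cox7a1 and 0.127 for Atp5b. The lowest of the 43 was 0.0627, for Atp5e. With 1 surrogate variable in the fit of 30 libraries, 1 member passed, Cox7a1.

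Markers of some cell types moved with these falls, and those of others did not. The summed level of 10 cardiomyocyte markers ran from 54271 to 93051 CPM with a median of 83028 in NTG TAC, against 89520 to 100702 CPM with a median of 96587 in NTG Sham, and 5 of the 10 were lower and 1 higher. Of 10 fibroblast markers, 6 were higher, with sums from 2945 to 7365 CPM in NTG TAC and from 2666 to 3341 CPM in NTG Sham. Of 10 macrophage markers, 4 were higher, with sums from 222 to 925 CPM in NTG TAC and from 257 to 346 CPM in NTG Sham. Of 10 endothelial markers and of 4 tested erythroid markers 0 passed. Of 10 smooth muscle and pericyte markers, 2 were higher and 3 lower.

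Divided by the cardiomyocyte marker sum of the same library, the member sum ran from 0.365 to 0.422 with a median of 0.404 in NTG TAC, against 0.387 to 0.444 with a median of 0.412 in NTG Sham. The 2 ranges overlap over most of their length. The part of these marker changes in the falls of the members was not tested. In bulk tissue, fewer cells of a type and less RNA per cell cannot be told apart.

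The second comparison asks the same in TG hearts, where the median shift of the members was smaller in the main fit. With 1 surrogate variable in the fit this order turned, with median log2 fold changes of -0.15 in TG and -0.12 in NTG hearts. In the edgeR fit of all 30 libraries 0 of 43 members passed, higher or lower, where 1.43% of all tested genes did, 0.53% lower and 0.898% higher. At an unadjusted p under 0.05 there were 14 members, beside 1972 of all 13588 tested genes. Voom called 10 members lower, beside 644 of all tested genes lower, and limma-trend 1, beside 79. The sign was negative for 40 of 43, with a median log2 fold change of -0.14, and of -0.10 in complex III, -0.13 in complex IV and -0.15 in ATP synthase. The member sum ran from 32821 to 38048 CPM with a median of 35135 in TG TAC, against 38048, 38006, 38123, 38785 and 40244 CPM in TG Sham. TG TAC replicate 1 was the 1 TAC library that reached the lowest TG Sham library.

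For 10 members, Uqcrq, Cox4i1, Cox6c, Cox7a2, Cox7b, Atp5c1, Atp5g1, Atp5h, Atp5j2 and Atp5pb, every TG TAC library lay below every TG Sham library. Over all tested genes 0.699% were separated in this direction. In NTG hearts 0 members were separated in this way, where 0.780% of all tested genes were lower with no overlap. Fitted on the 15 TG libraries alone, 15 members were lower and 0 higher, where 3.01% of 13219 tested genes were lower and 4.21% higher, and with DESeq2 on all libraries 1 member was lower, Atp5e. The count of calls thus differed between fits, and the cause of this was not tested. The SD of the member sum was 1525 CPM in TG TAC and 950 CPM in TG Sham, against 5281 CPM in NTG TAC and 2963 CPM in NTG Sham.

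Cox7a2, the common form of subunit 7A, had the smallest p of complex IV in TG hearts. It ran from 215 to 274 CPM with a median of 238 in TG TAC, against 301, 274, 276, 283 and 328 CPM in TG Sham, with a log2 fold change of -0.27 ± 0.08 (adjusted p = 0.0954 over all groups, 0.00512 in the TG libraries alone). The TAC and Sham libraries of Cox7a2 do not overlap. Atp5e ran from 149 to 236 CPM with a median of 202 in TG TAC, against 261, 227, 238, 246 and 260 CPM in TG Sham, with a log2 fold change of -0.33 ± 0.10 (adjusted p = 0.0712 over all groups, 0.0248 in the TG libraries alone).

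Uqcrq, a small subunit of complex III with the largest shift of that complex, ran from 563 to 667 CPM with a median of 616 in TG TAC, against 714, 675, 686, 692 and 757 CPM in TG Sham, with a log2 fold change of -0.21 ± 0.10 (adjusted p = 0.328 over all groups, 0.00850 in the TG libraries alone). Cox6b2 again had the largest change of complex IV, at 0.189 to 1.40 CPM with a median of 0.805 in TG TAC, against 1.88, 1.35, 1.27, 1.45 and 1.78 CPM in TG Sham. Its log2 fold change was -0.89 ± 0.35 (adjusted p = 0.208 over all groups, 0.0467 in the TG libraries alone). Atp5md had the highest value, at 0.33 ± 0.16 (adjusted p = 0.313), with 3.78 to 5.69 CPM in TG TAC, against 3.84, 3.24, 3.64, 4.45 and 3.88 CPM in TG Sham.

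In the main fit, without a surrogate variable, the following members that fell in NTG hearts stood nearer to 0 in TG hearts. Uqcrh had the smallest p of complex III, at 237 to 286 CPM with a median of 269 in TG TAC, against 308, 274, 266, 300 and 319 CPM in TG Sham (-0.17 ± 0.08, adjusted p = 0.327). Cyc1 had 1051 to 1201 CPM with a median of 1137 in TG TAC, against 1240, 1200, 1242, 1227 and 1236 CPM in TG Sham (-0.12 ± 0.08, adjusted p = 0.492). For Cyc1 the 10 TAC libraries lay at or below the lowest Sham library but for the highest of them, which passed it by about 1 CPM.

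Cycs had 434 to 483 CPM with a median of 454 in TG TAC, against 523, 495, 444, 463 and 512 CPM in TG Sham (-0.10 ± 0.08, adjusted p = 0.606). Cox7a1 had 344 to 442 CPM with a median of 375 in TG TAC, against 445, 410, 376, 445 and 478 CPM in TG Sham (-0.17 ± 0.16, adjusted p = 0.681). Atp5b had 6558 to 7551 CPM with a median of 6886 in TG TAC, against 7325, 7663, 7538, 7718 and 7904 CPM in TG Sham (-0.14 ± 0.09, adjusted p = 0.496). In all 3 genes the TAC and Sham libraries overlapped, and every TG TAC library lay above the lowest NTG TAC library. Below all TG Sham libraries lay 2 of 10 TG TAC libraries for Cycs, 6 for Cox7a1 and 9 for Atp5b. The quasi-likelihood test in the TG libraries alone gave adjusted p of 0.21 for Cycs, 0.0824 for Cox7a1 and 0.0389 for Atp5b. Cox6a2 had 2645 to 3874 CPM with a median of 3201 in TG TAC, against 3305, 3235, 3453, 3437 and 3702 CPM in TG Sham (-0.09 ± 0.12, adjusted p = 0.791). For Cox6a2, 5 of 10 TG TAC libraries lay below all TG Sham libraries and 1 lay above them all.

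Beside these values, the cardiomyocyte marker sum ran from 83970 to 95162 CPM in TG TAC and from 87803 to 96520 CPM in TG Sham. In the main fit 0 of 10 cardiomyocyte, fibroblast or macrophage markers passed, where 1.43% of all tested genes did. The member sum over the cardiomyocyte marker sum ran from 0.383 to 0.412 with a median of 0.399 in TG TAC, against 0.402 to 0.458 with a median of 0.416 in TG Sham. These ranges overlap little.

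Genotype was compared within each operation. After TAC, 0 of 43 members passed between TG and NTG hearts with edgeR, and 0 with DESeq2, voom or limma-trend, where 11.4% of all tested genes did, 4.57% higher and 6.86% lower in TG. With 1 surrogate variable in the fit the median log2 fold change was -0.009. In the main fit it was 0.07, and the sign was positive for 37 of 43. An unadjusted p under 0.05 was found for 3 members and for 3783 of all 13588 tested genes. Uqcrc1 had the smallest p of complex III, at 1576 to 1858 CPM with a median of 1756 in TG TAC, against 992 to 1864 CPM with a median of 1604 in NTG TAC, with TG higher by 0.17 ± 0.08 on the log2 scale (adjusted p = 0.155). Atp5b had 6558 to 7551 CPM with a median of 6886 in TG TAC, against 4248 to 7343 CPM with a median of 6321 in NTG TAC, and a log2 fold change of 0.15 ± 0.07 (adjusted p = 0.172). For both genes the lowest TG TAC library lay well above the lowest NTG TAC library and the upper ends were close, so the groups differed in spread. Atp5d, the delta subunit of the rotor, had the smallest p of ATP synthase, at 933 to 1217 CPM with a median of 1056 in TG TAC, against 761 to 1169 CPM with a median of 986 in NTG TAC (0.13 ± 0.06, adjusted p = 0.161). The 6 members with a negative sign were Cox6b2, at -0.55 ± 0.30 (adjusted p = 0.235), and Atp5e, Atp5j2, Atp5mpl, Cox6b1 and Cox6c, which lay between -0.02 and 0.00. Without NTG TAC replicate 6, Cox6a2 passed at 0.27 (adjusted p = 0.0394).

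After Sham, 0 of 43 members passed between TG and NTG hearts with the same 4 tools. With edgeR 0.729% of all tested genes did, 0.596% higher and 0.132% lower in TG. An unadjusted p under 0.05 was found for 2 members and for 988 of all 13588 tested genes. With 1 surrogate variable in the fit the median log2 fold change was 0.02. In the main fit it was -0.06, with 38 of 43 negative. Cox6b2 had the largest difference, -0.92 ± 0.37 (adjusted p = 0.50), and Cox7a1 and Cox8b, the muscle forms, stood at -0.27 ± 0.18 (adjusted p = 0.882) and -0.24 ± 0.11 (adjusted p = 0.635). Cox8b had 342, 290, 304, 321 and 345 CPM in TG Sham, against 346, 341, 416, 450 and 340 CPM in NTG Sham. Of the ATP synthase subunits, Atp5md had the largest difference, with 3.84, 3.24, 3.64, 4.45 and 3.88 CPM in TG Sham, against 3.30, 3.83, 4.61, 6.28 and 5.60 CPM in NTG Sham (-0.31 ± 0.18, adjusted p = 0.821). Of complex III it was Uqcr11, with 371, 345, 318, 331 and 353 CPM in TG Sham, against 365, 343, 374, 446 and 374 CPM in NTG Sham (-0.15 ± 0.11, adjusted p = 0.935). Both pairs of groups overlapped.

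In the test of whether TAC acted differently in the 2 genotypes, 0 of 43 members and 0% of all tested genes passed with edgeR. An unadjusted p under 0.05 was found for 1 member and for 1103 of all 13588 tested genes. DESeq2 called 5 genes and limma-trend 1 gene over the whole table, and neither called a member. The largest such difference was that of Cox7a1, 0.45 ± 0.23 (adjusted p = 0.618), the TG change minus the NTG change. The smallest p of complex IV was that of Cox5b, a zinc-binding subunit, at 0.25 ± 0.12 (adjusted p = 0.614). Its changes with TAC were -0.05 ± 0.09 in TG and -0.30 ± 0.08 in NTG hearts. Uqcr11 stood at 0.27 ± 0.14 (adjusted p = 0.618), with 0.00 ± 0.10 in TG and -0.27 ± 0.10 in NTG hearts.

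Atpif1 encodes the inhibitory factor that blocks ATP synthase when it would run backwards. It is no member by its symbol, and it did not follow the subunits. It ran from 128 to 192 CPM with a median of 161 in TG TAC, against 165 to 239 CPM with a median of 184 in NTG TAC, and was lower in TG hearts, with TG minus NTG at -0.25 ± 0.07 on the log2 scale (adjusted p = 0.0271). After Sham it had 154, 144, 134, 139 and 153 CPM in TG, against 172, 172, 196, 206 and 175 CPM in NTG, at -0.35 ± 0.10 (adjusted p = 0.154). These Sham libraries do not overlap, while the TAC libraries do. TAC itself left it at 0.05 ± 0.09 (adjusted p = 0.723) in NTG and 0.15 ± 0.09 (adjusted p = 0.446) in TG hearts. Exons of Atpif1 share 485 bases with Gm12999, an antisense gene on the opposite strand. The strand setting of the counting is not stated, so the levels and differences of Atpif1 are uncertain.

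Pairs of isoforms were compared within a library as the log2 ratio of their counts, in which depth and scaling cancel. For 7 pairs and 5 comparisons, 35 permutation tests over libraries were adjusted together, and 1 passed. This was Cox7a1 over Cox7a2, whose change with TAC differed between genotypes. The log2 ratio ran from 0.49 to 0.85 with a median of 0.66 in TG TAC, against 0.57, 0.58, 0.45, 0.65 and 0.54 in TG Sham. It ran from -0.09 to 0.81 with a median of 0.60 in NTG TAC, against 0.85, 0.75, 0.81, 1.05 and 0.996 in NTG Sham. The muscle form thus had a lower share in most NTG TAC libraries than in NTG Sham libraries, and a similar or higher one in TG TAC than in TG Sham libraries.

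The change of the Cox7a1 over Cox7a2 log2 ratio was 0.11 ± 0.05 (SE) in TG hearts (two-sided exact permutation p = 0.0616, adjusted 0.195) and -0.38 ± 0.11 in NTG hearts (exact permutation p = 0.0160, adjusted 0.0799). The difference of the changes was 0.49 ± 0.12 (exact permutation of genotype within each operation, p = 0.0010, adjusted 0.0350). The Sham groups set part of it: the ratio was lower in TG Sham than in NTG Sham by -0.33 ± 0.07, with no overlap of 5 against 5 libraries (exact permutation p = 0.00794, the smallest this design allows, adjusted 0.0799). After TAC the difference between TG and NTG was 0.16 ± 0.10 (permutation p = 0.128). Leaving out single libraries gave adjusted p from 0.0132 to 0.0729 for the difference of the changes, over 0.05 in 15 of 30 cases, among them NTG TAC replicates 2, 3, 8 and 10 and NTG Sham replicates 4 and 5.

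Cox7a1 and Cox8b are also the forms of brown fat. The summed level of 10 adipocyte markers ran from 640 to 810 CPM in TG TAC and from 699 to 764 CPM in TG Sham, and from 488 to 928 CPM in NTG TAC and from 779 to 915 CPM in NTG Sham. Cidea, Lipe and Pnpla2 carried nearly all of it, with group means from 29.1 to 38.6, from 44.3 to 57.4 and from 644 to 742 CPM. These were the 3 that passed the filter on low counts, and Cidea was higher in NTG TAC than in NTG Sham (0.26 ± 0.08, adjusted p = 0.0263). Ucp1 had 0 counts in 28 of 30 libraries, and Adipoq and Plin1 had group means of at most 0.186 and 0.201 CPM. The part of fat transcripts in these ratios was not tested.

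Cox8b over Cox8a, the other pair whose promoters are printed above, had a like pattern that did not pass. Its log2 ratio ran from 0.48 to 0.88 with a median of 0.65 in TG TAC, against 0.72, 0.60, 0.68, 0.75 and 0.72 in TG Sham. It ran from 0.14 to 1.01 with a median of 0.63 in NTG TAC, against 0.96, 0.93, 1.04, 1.15 and 0.87 in NTG Sham. TG Sham and NTG Sham libraries do not overlap, at a difference of -0.30 ± 0.05 (exact permutation p = 0.00794, adjusted 0.0799). The change with TAC was -0.05 ± 0.04 in TG (exact permutation p = 0.394, adjusted 0.581) and -0.34 ± 0.09 in NTG hearts (exact permutation p = 0.0153, adjusted 0.0799), and the difference of the changes was 0.29 ± 0.10 (exact permutation p = 0.0341, adjusted 0.133).

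The other pairs did not pass. Cox6a2 over Cox6a1 changed with TAC by -0.03 ± 0.07 in TG (exact permutation p = 0.675, adjusted 0.831) and by -0.23 ± 0.09 in NTG hearts (exact permutation p = 0.0669, adjusted 0.195). Cox6b2 over Cox6b1 had differences of -0.92 ± 0.24 in TG (exact permutation p = 0.0113, adjusted 0.0799) and -1.19 ± 0.32 in NTG hearts (exact permutation p = 0.0130, adjusted 0.0799), on the few counts of Cox6b2. Cox4i2 over Cox4i1 differed by 0.25 ± 0.09 in TG (exact permutation p = 0.0456, adjusted 0.160) and 0.02 ± 0.11 in NTG hearts (exact permutation p = 0.845, adjusted 0.896). For the ring subunit of ATP synthase, Atp5g1 over Atp5g3 differed by 0.06 ± 0.06 in TG and 0.02 ± 0.07 in NTG hearts, and Atp5g2 over Atp5g3 by -0.03 ± 0.04 in TG and 0.01 ± 0.07 in NTG hearts, each smaller than the spread between libraries (adjusted exact permutation p from 0.581 to 0.936).

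**Figure D3:**
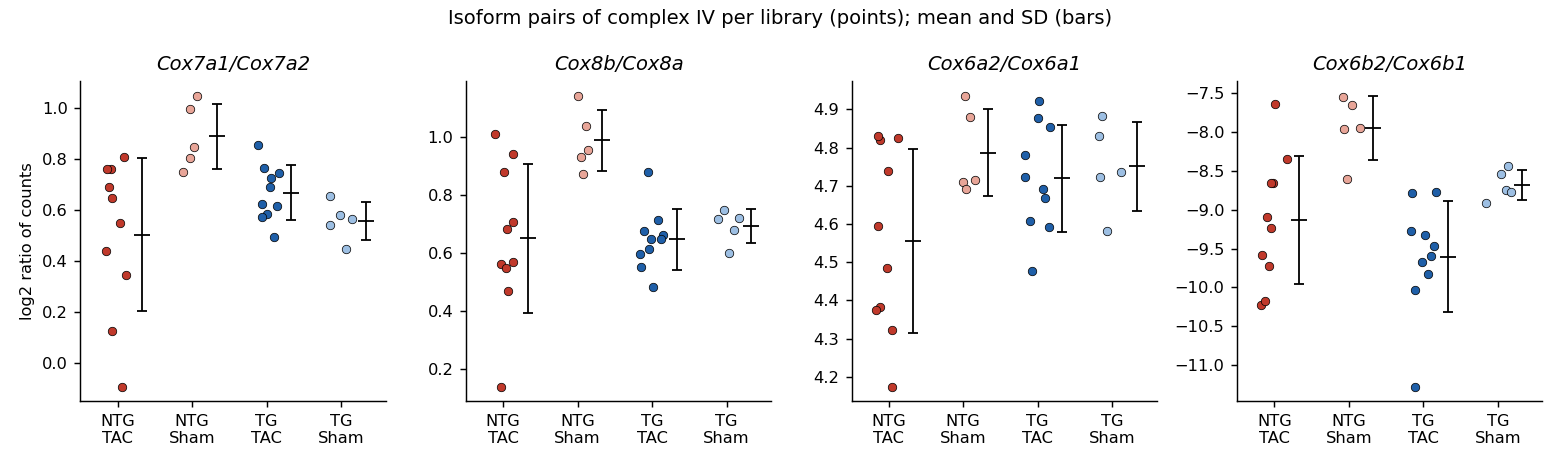
Log2 ratio of counts (vertical axis) of 4 isoform pairs of complex IV in each library (points), with the mean and SD of each group (bars). For Cox7a1 over Cox7a2 and Cox8b over Cox8a the NTG Sham libraries have the highest mean and lie above all TG Sham libraries. Some TAC libraries reach into their range, and the NTG TAC libraries spread the widest.

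How the members vary within a TAC group was set against Nppa. In NTG TAC, Nppa falls into 2 sets of 5 libraries separated by a gap of 1.81 on the log2 scale, so no correlation over the pooled libraries is given. NTG TAC replicates 1 to 10 had member sums of 37185, 27950, 27232, 38077, 32310, 38217, 35999, 31295, 34747 and 22596 CPM. The 5 lowest of these sums were in replicates 2, 3, 5, 8 and 10, the libraries with Nppa of 5666 CPM or more. The cardiomyocyte marker sum was lowest in the same 5 libraries, at 73140, 74579, 77234, 80186 and 54271 CPM, against 85870 to 93051 CPM in replicates 1, 4, 6, 7 and 9. Divided by that sum, the member sum was 0.382, 0.365, 0.418, 0.390 and 0.416 in replicates 2, 3, 5, 8 and 10, which overlaps the 0.400 to 0.422 of the other 5.

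In TG TAC (n = 10), Nppa ran from 87.8 to 994 CPM. For Atp5b, Pearson's r with Nppa was -0.84 (permutation p = 0.00303, adjusted 0.00909 over 3 genes) and Spearman's rho -0.66 (permutation p = 0.0440, adjusted 0.132). Without TG TAC replicates 1 and 6, the 2 libraries farthest from the median of Nppa, r was -0.32, so the relation rests on them. For Cyc1, r was -0.49 (permutation p = 0.145, adjusted 0.218) and rho -0.31 (permutation p = 0.385, adjusted 0.429), with r of 0.02 without the same 2 libraries. For Cox6a2, r was -0.42 (permutation p = 0.235, adjusted 0.235) and rho -0.28 (permutation p = 0.429, adjusted 0.429), with r of -0.21 without them.

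**Figure D4:**
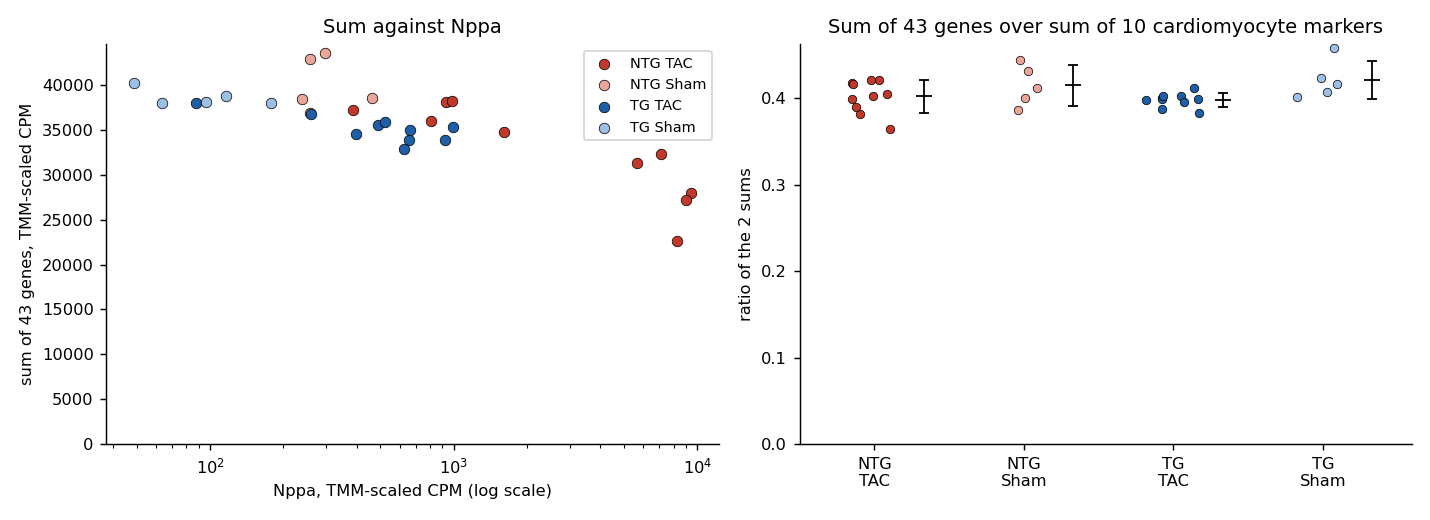
Left, sum of the 43 members (TMM-scaled CPM) against Nppa (TMM-scaled CPM, log scale), 1 point per library; right, the member sum divided by the sum of 10 cardiomyocyte markers, with the mean and SD of each group (bars). The 5 NTG TAC libraries with Nppa from 5666 CPM have the lowest sums, while the ratio on the right has medians of 0.404 in NTG TAC, 0.412 in NTG Sham, 0.399 in TG TAC and 0.416 in TG Sham.

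The rest of the pathway was counted in the same way. In NTG TAC hearts, 24 of 35 tested subunits of complex I and 3 of 4 of complex II were lower and 0 higher, and their median log2 fold changes of -0.29 and -0.35 were close to those of the members. Of genes that help assemble the complexes, 3 of 7 were lower and 1 higher for complex III and 2 of 5 were lower for ATP synthase. For complex IV 2 of 26 were lower and 1 higher, a share close to the 8.13% lower and under the 9.46% higher of all tested genes. Cox19, a copper-handling assembly factor of complex IV, ran from 45.5 to 95.8 CPM with a median of 69.3 in NTG TAC, against 44.9 to 48.4 CPM with a median of 47.8 in NTG Sham, and rose by 0.59 ± 0.12 (adjusted p = 0.00311). It thus moved against the subunits of its complex. Ndufb11 of complex I fell by 0.38 ± 0.09 (adjusted p = 0.00559), Sdha, the flavoprotein of complex II, by 0.40 ± 0.11 (adjusted p = 0.0117), and Uqcc2, an assembly factor of complex III, by 0.26 (adjusted p = 0.00944). Of 8 genes of the MICOS complex, which shapes the inner membrane, 0 passed in NTG hearts with edgeR. An unadjusted p under 0.05 was found for 4 of them and for 4412 of all 13588 tested genes.

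Of 19 regulators of mitochondrial biogenesis, 2 were lower and 0 higher in NTG TAC hearts, a share near the 8.13% of all tested genes that were lower: Mef2a at -0.26 ± 0.07 (adjusted p = 0.0131) and the coactivator Ppargc1b at -0.45 ± 0.14 (adjusted p = 0.0317). The coactivator Ppargc1a stood at -0.28 ± 0.14 and did not pass (adjusted p = 0.157). Of the factors whose motifs were searched above, Nrf1 had -0.19 (adjusted p = 0.180) and Gabpa -0.18 (adjusted p = 0.108). In TG hearts, 0 of these 19, 0 of 35 subunits of complex I and 0 of 4 of complex II passed with TAC. Of all tested genes 1.43% passed in this comparison, 0.898% higher and 0.53% lower, so these counts of 0 are near that share. Taco1, which activates translation of a mitochondrially encoded subunit of complex IV, was the 1 assembly gene that rose there, at 49.2 to 62.5 CPM with a median of 54.9 in TG TAC, against 37.5 to 49.2 CPM with a median of 42.7 in TG Sham (0.36 ± 0.09, adjusted p = 0.0426). Between TG TAC and NTG TAC hearts, where 4.57% of all tested genes were higher in TG, 3 of 26 genes of complex IV assembly (Taco1, Cox10 and Cox15) and 2 of 5 of ATP synthase assembly (Atpaf1 and Atpaf2) were higher. So were 1 of 8 of MICOS (Chchd3), 1 of 35 of complex I (Ndufb4) and 1 of 19 regulators (Esrrg), and these last 2 shares are near or under that of all genes. The log2 fold changes of these 8 genes ran from 0.13 (Cox15) to 0.26 (Taco1).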

How the data were processed

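Counts per gene were deposited for 30 libraries, with CPM that equal the counts over the library total. Per the submitters' processing notes, Trim Galore 0.6.4, TopHat, Bowtie2 2.2.9, edgeR 3.17 and mm10 were used; per the labels' protocols, libraries came from 1.3 ug RNA and were strand specific. The counting program and strand setting are not given in the sources used here. The deposited counts were fitted with edgeR 4.0.16 (R 4.3.3; filterByExpr, TMM, robust quasi-likelihood, 1 term per group, 30 libraries), two-sided, with Benjamini-Hochberg adjustment over 13588 genes. SE is the absolute log2 fold change over the square root of F. Levels are TMM-scaled CPM. Ratios added 0.5 to each count. Transcript lengths came from GENCODE vM21. Members and lists were chosen with earlier results of these data known. Named genes were, per complex and comparison, those with the smallest p or largest change, isoform pairs, Cyc1, Cycs, Atpif1 and Cox7a2l. Of 6 planned correlations with Nppa, 3 were run; those in NTG TAC were left out because Nppa falls into 2 separate sets there. Alternatives used limma 3.58.1, DESeq2 1.42.0 and sva 3.50.0. The scripts were tested on simulated data.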

Additional observations from a re-analysis of the deposited data

Results flagged for a closer look

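For the members and ratios, 6 values stand apart from their group by the gap to the nearest other library as a share of the group's range, over 144 group checks, of which chance flags about 1 in 20. In NTG TAC replicate 6 this share was 0.513 for Cox6a1 (154.8 CPM), 0.599 for Cox8a (244.6 CPM) and 0.677 for the ratio of Atp5g1 to Atp5g3, each as the highest of its group. In TG TAC replicate 7 it was 0.498 for Atp5g1 (944.9 CPM) and 0.498 for the ratio of Cox6b2 to Cox6b1, each as the lowest. In TG Sham replicate 2 it was 0.717 for Cox4i2 (10.8 CPM), as the highest.

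The change of the Cox7a1 to Cox7a2 log2 ratio with TAC differed between genotypes by 0.49 (TG minus NTG), as tested above by permuting genotype within each operation.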

How the results depend on the processing

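Leaving out 1 library gave 9 to 36 members called for TAC in NTG hearts, 0 to 2 for TAC in TG hearts (Atp5e and Cox6c without NTG TAC replicate 10, Atp5e without TG TAC replicate 1) and 0 to 1 for genotype after TAC. For all genes it gave 1550 to 3200 and 93 to 296 for TAC in NTG and TG hearts, 56 to 115 and 822 to 2384 for genotype after Sham and after TAC, and 0 to 2 for the difference of the TAC effects. It gave -1.35 to -1.07 for the log2 ratio of Cox6b2 to Cox6b1 with TAC in NTG hearts, 0.43 to 0.53 for the Cox7a1 to Cox7a2 difference, and r from -0.90 to -0.66 for Atp5b and from -0.71 to -0.23 for Cyc1 with Nppa.

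For TAC in NTG hearts, a fit of the compared groups alone called 0 members and 218 genes, and 1 surrogate variable 1 and 333. For TAC in TG hearts, members and genes called were 1 and 379 with DESeq2, 10 and 1305 with voom, 15 and 954 with the compared groups alone, 15 and 796 with 1 surrogate variable, 1 member with limma-trend, and 15 genes with the number in the deposited names as a term. For genotype, voom, the compared groups alone and 1 surrogate variable called 248, 247 and 150 genes after Sham and 621, 600 and 578 after TAC. DESeq2 called 5 genes and limma-trend 1 for the difference of the TAC effects. In the fits of compared groups the spread came from those groups only. Against the main fit, genes called rose there for TAC in TG hearts and for genotype after Sham. They fell for TAC in NTG hearts and for genotype after TAC. The cause of these shifts was not tested.

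The number in the deposited names is 100 or more in 3 of 10 NTG TAC, 4 of 5 NTG Sham, 1 of 10 TG TAC and 5 of 5 TG Sham libraries. Its meaning is not given. With it as a term, 22 members were lower for TAC in NTG hearts, 20 of them among the 29 of the main fit. Of all 13588 tested genes 671 were lower with this term, against 1105 in the main fit. Replicate numbers do not pair the libraries (median correlation 0.05 over 35 pairs). The replicate block called 28 members, beside 866 of all tested genes lower. Other scalings and filters on low counts called 27 to 30 members, beside 951 to 1131 of all tested genes lower. No member's sign turned under a called value. Depth limits Cox6b2.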
